A study of Mus musculus with 9 samples.

Results

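The heat shock and DnaJ chaperones were taken as the protein-coding mouse genes whose symbol begins with Hspa, Hspb, Hspd, Hspe, Hsph, Hsp90, Dnaja, Dnajb or Dnajc, with 1 such symbol left out. The annotation holds 73 of these genes, and 63 of them had at least 10 counts over the 9 libraries and were tested, among 18127 genes tested in all. Counts under this limit were found for Hspb7 (9 counts over the 9 libraries), Dnajb13 and Hspb3 (7 each), Hspa1l (6), Dnajc22 (4) and Dnajc5b (1), and Dnajb7, Dnajb8, Dnajc5g and Hspb9 had none. The rule goes by symbol, so it also takes in Hspbp1 and Hspbap1, which are binding partners of heat shock proteins and not chaperones of these families, and Hspb11, which is counted with them here and is an intraflagellar transport protein (Ift25). The members had between 0.661% and 0.699% of all counts in each library. Midbrain tissue that includes the substantia nigra came from 4 DJ-1+/+ mice and 5 DJ-1-/- mice, 3 to 4 months old, with 1 library for each animal. DJ-1-/- mice carry a targeted, germline allele of Park7, so that all cells lack the intact gene, and the line had been crossed back to C57BL/6 for 7 generations. DJ-1+/+ and DJ-1-/- animals were bred from heterozygous parents and shared cages, and neither genotype received a treatment. The comparison asks whether loss of DJ-1 changes the transcripts of the midbrain, and here those of its chaperones.

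Chaperones of the Hsp70 family bind unfolded stretches of other proteins and release them in a cycle driven by ATP. DnaJ proteins, also called Hsp40 or J-domain proteins, bring substrates to Hsp70 and speed up its ATP hydrolysis, while Hsp110 proteins exchange the spent nucleotide. Hsp90 completes the folding of kinases and steroid receptors, Hsp60 and Hsp10 form the folding chamber of mitochondria, and small heat shock proteins hold unfolded proteins until Hsp70 takes them over. The transcription factor Hsf1 raises a subset of these genes when proteins unfold, by binding heat shock elements, which are inverted repeats of the unit nGAAn. In neurons, DnaJ proteins such as cysteine string protein and auxilin act at the synaptic vesicle, and mutations of auxilin and of other DnaJ genes are known from inherited parkinsonism.

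The promoters shown here belong to the strongly heat-inducible pair Hspa1a and Hspa1b, which are nearly identical genes, and to Hspe1, which shares its promoter with Hspd1. Each is the RefSeq window from 250 bases before to 50 bases after the gene's start (GRCm38.p6), written 5′ to 3′ along the gene's strand, with 2-unit heat shock elements (GAANNTTC or TTCNNGAA, N being any base) in capitals.
Hspa1a, chr17:34972107-34972406, minus strand: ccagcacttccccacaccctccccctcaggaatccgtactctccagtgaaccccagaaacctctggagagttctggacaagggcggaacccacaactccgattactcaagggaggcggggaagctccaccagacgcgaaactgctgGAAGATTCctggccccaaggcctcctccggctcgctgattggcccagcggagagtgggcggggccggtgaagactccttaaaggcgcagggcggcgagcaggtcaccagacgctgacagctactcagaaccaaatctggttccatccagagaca
Hspa1b, chr17:34959189-34959488, minus strand: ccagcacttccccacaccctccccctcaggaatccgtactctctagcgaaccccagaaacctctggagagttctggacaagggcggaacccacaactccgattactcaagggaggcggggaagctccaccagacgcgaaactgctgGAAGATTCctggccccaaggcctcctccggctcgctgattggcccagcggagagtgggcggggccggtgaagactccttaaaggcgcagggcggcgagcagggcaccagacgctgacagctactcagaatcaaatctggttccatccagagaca
Hspe1, chr1:55087898-55088197, plus strand: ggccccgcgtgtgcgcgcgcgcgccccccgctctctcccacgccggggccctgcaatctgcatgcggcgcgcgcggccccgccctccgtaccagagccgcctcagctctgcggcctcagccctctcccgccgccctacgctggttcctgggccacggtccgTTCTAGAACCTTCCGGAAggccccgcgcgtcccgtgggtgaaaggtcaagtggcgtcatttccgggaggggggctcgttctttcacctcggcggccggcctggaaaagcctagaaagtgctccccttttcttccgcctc
The windows of Hspa1a and Hspa1b differed at 4 of 300 bases, and both held the element at -104 to -97 from the start. In Hspe1 the capitals are 3 overlapping elements between -89 and -72, and the same stretch lies between -144 and -127 of an Hspd1 start on the other strand, with 285 bases of both windows in common. Both patterns read the same on either strand, and overlapping matches were kept. Of the 52 tested members with a window, 14 (26.9%) held at least 1 element, against 1715 of 12265 tested genes with a window (14.0%) and 15.1% of all windows of this length. Among members listed as heat-inducible the share was 8 of 10 (80.0%), and among the other members 6 of 42 (14.3%). The list consists of genes known for this response, so its share is a description of that list. The longer pattern of 3 units (GAANNTTCNNGAA or TTCNNGAANNTTC) occurred in 4 of 52 members, namely Hspd1, Hspe1, Hsph1 and Dnajb6, and in 0.563% of tested genes. A match of letters is not a proof of binding. No window was found for Dnajc2, Dnajc5, Dnajc11, Dnajc12, Dnajc18, Dnajc30, Hsp90aa1, Hsp90ab1, Hspa8, Hspa13 and Hspb2.

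Library totals ran from 841974 to 886085 counts in DJ-1+/+ and from 967751 to 1098125 counts in DJ-1-/- mice, so that every DJ-1-/- library was deeper. Counts are given per 1000000 of the library total (cpm). A level of 3 counts was used as the floor of detection and is between 2.73 and 3.56 cpm, with counting error alone in view. Park7 had 132, 105, 113 and 118 counts in DJ-1+/+ and 23, 29, 14, 19 and 19 counts in DJ-1-/- mice, as the labels say. In edgeR's test it had a log2 fold change of −2.71 (standard error 0.15, adjusted p = 7.39e-08), and it was the single gene of 18127 with an adjusted p under 0.05 (0.00552% of the genes tested). Markers of dopaminergic neurons, which the labelled tissue should hold, summed to 653 to 1190 cpm in DJ-1+/+ libraries, with 900 to 1259 in DJ-1-/-. The sum of cerebellar neuron markers was 1056 cpm in DJ-1+/+ replicate 1, where the remaining DJ-1+/+ libraries had 145 to 275 and the DJ-1-/- libraries 192 to 277. For choroid plexus markers it was 1413 cpm in DJ-1+/+ replicate 4, where the remaining DJ-1+/+ libraries had 402 to 698 and the DJ-1-/- libraries 416 to 541. No gene of these 3 lists was at 0 in all libraries. In edgeR's test, 7 of 10 cerebellar and 8 of 15 choroid plexus markers were lower in DJ-1-/- at an unadjusted p under 0.05. At the same limit 5 of 15 dopaminergic markers were higher. Over all genes tested, 1.26% were called lower and 1.57% higher. The part of DJ-1+/+ replicates 1 and 4 in these marker calls was not tested. Xist, expressed from the inactive X chromosome, had 0 to 2 counts in 3 libraries, which were DJ-1+/+ replicates 1 and 4 with DJ-1-/- replicate 5. Ddx3y went the other way, with 121, 113 and 152 counts in these 3 libraries and 0 to 4 in the others. Within DJ-1+/+, low Xist thus fell on the libraries with the high cerebellar or choroid plexus markers, and the 2 features cannot be told apart there. In such bulk tissue, fewer cells of a type and less RNA per cell cannot be told apart.

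The most abundant chaperone transcript of the midbrain was Hsp90ab1, the constitutive cytosolic Hsp90, which measured 463 ± 9.18 cpm over the DJ-1+/+ libraries (SD, n = 4), against 433 ± 15.2 cpm over those of DJ-1-/- (SD, n = 5). It ranked 12 among the 18127 genes. Hsp90aa1, its inducible relative, followed at 336 ± 5.78 and 337 ± 11.7 cpm. In all 9 libraries Hsp90ab1 stood above Hsp90aa1, and no library of either gene overlapped those of the next member. From there on the order is a continuous slope in which neighbours overlapped between libraries. Hspa5 (258 ± 22.9 cpm in DJ-1+/+), the Hsp70 of the endoplasmic reticulum, Hspa4l (240 ± 9.79), an Hsp110 protein, Dnajc5 (212 ± 12.8), cysteine string protein, and Hspa8 (198 ± 15.6), the constitutive cytosolic Hsp70, made up the upper end of that slope. The heat-inducible Hsp70 genes were near the bottom, with Hspa1a at 30.4 ± 5.47 and Hspa1b at 20.6 ± 8.49 cpm. Between 100 and 300 cpm there were 30 members, between 30 and 100 cpm there were 22, and under 30 cpm there were 9. The median member was at 102 cpm, against 35.0 cpm for all genes tested. Each library has its fragments near the transcript's end, so cpm does not grow with transcript length and can be set side by side between genes. The ends of Hspa8, Hspe1, Hspb1 and Dnajc2 matched other annotated genes, so the level and rank of these members are less certain. Counts were compressed at the upper end, since no gene had more than 1359 counts in any library, and differences between abundant genes may be understated for that reason.

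**Figure D1:**
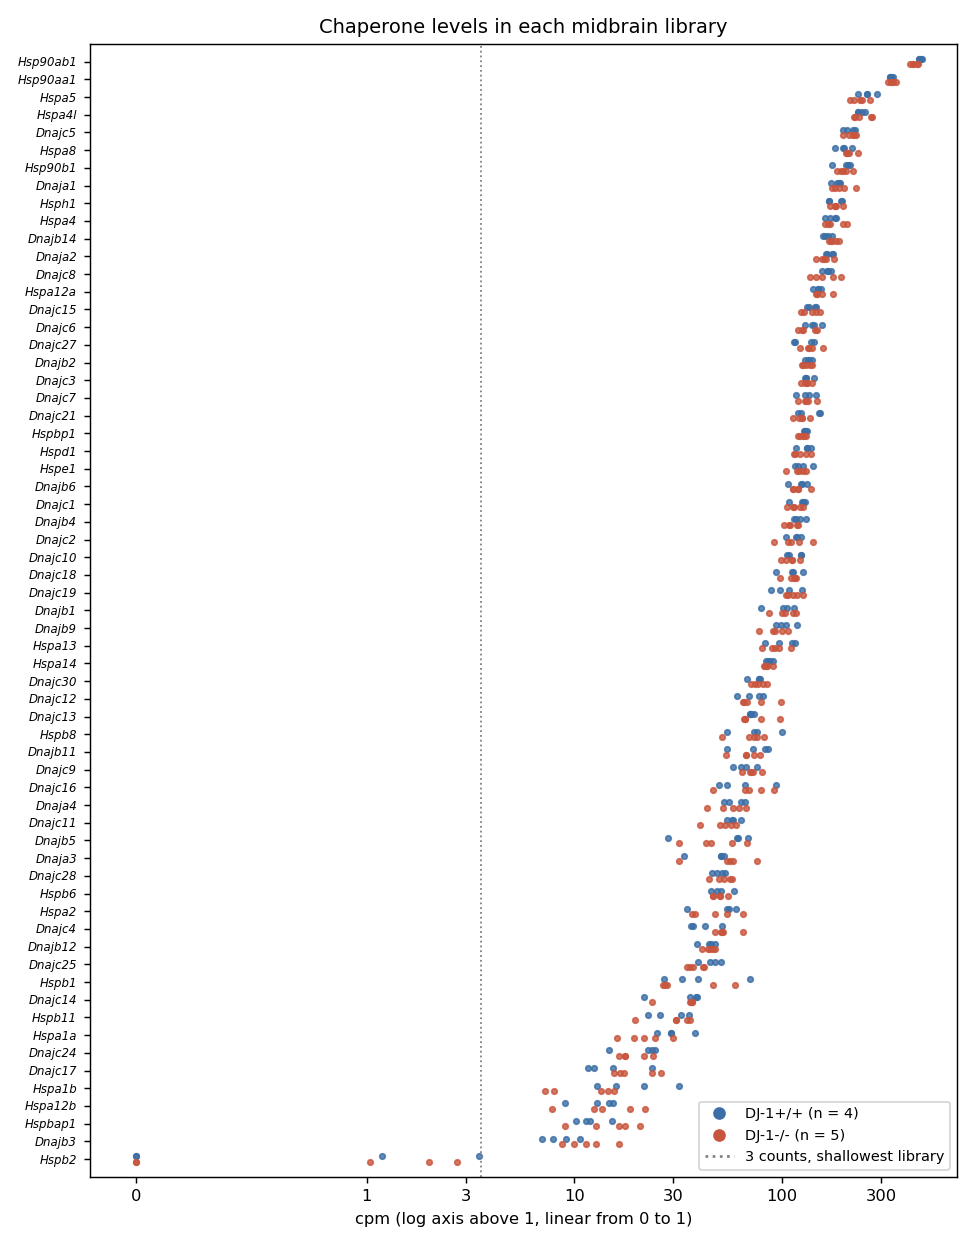
Level of each of the 63 tested members in each library (x axis, cpm, logarithmic above 1), ordered by mean, with the 4 DJ-1+/+ libraries in blue and the 5 DJ-1-/- libraries in red. Hsp90ab1 and Hsp90aa1 stand apart at the top, Hspb2 lies at or under the level of 3 counts, and for nearly all members the colours overlap.

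The chaperone transcripts of the DJ-1-/- midbrain were close to their DJ-1+/+ level. Neither edgeR's quasi-likelihood test nor DESeq2 gave any member an adjusted p under 0.05. At an unadjusted p under 0.05 edgeR called 2 of 63 members (3.17%), where 2.83% of all genes tested were called. DESeq2 called 1 of 63 members, where 235 of 18127 genes were called. The 2 in edgeR's test were Hspa1b, which was lower in DJ-1-/- mice (1.26% of all genes were called lower), and Dnajc4, which was higher (1.57% of all genes were called higher). These shares are near the background. The log2 fold change was positive for 30 members and negative for 33, with a median of −0.01, against 0.01 over all genes. Its 95% interval lay within a 1.5-fold change in either direction for 51 members, among them all 32 with at least 100 cpm, whose bounds ran from −0.33 to 0.33. The other 12 were at most at 51.8 cpm, and their intervals do not exclude a larger change. Since counts were compressed at the upper end, changes between genotypes in abundant members may be understated too. The cpm of 1 member, Hsp90ab1, did not overlap between genotypes, which is 1.59% of members and 1.25% of all genes.

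**Figure D2:**
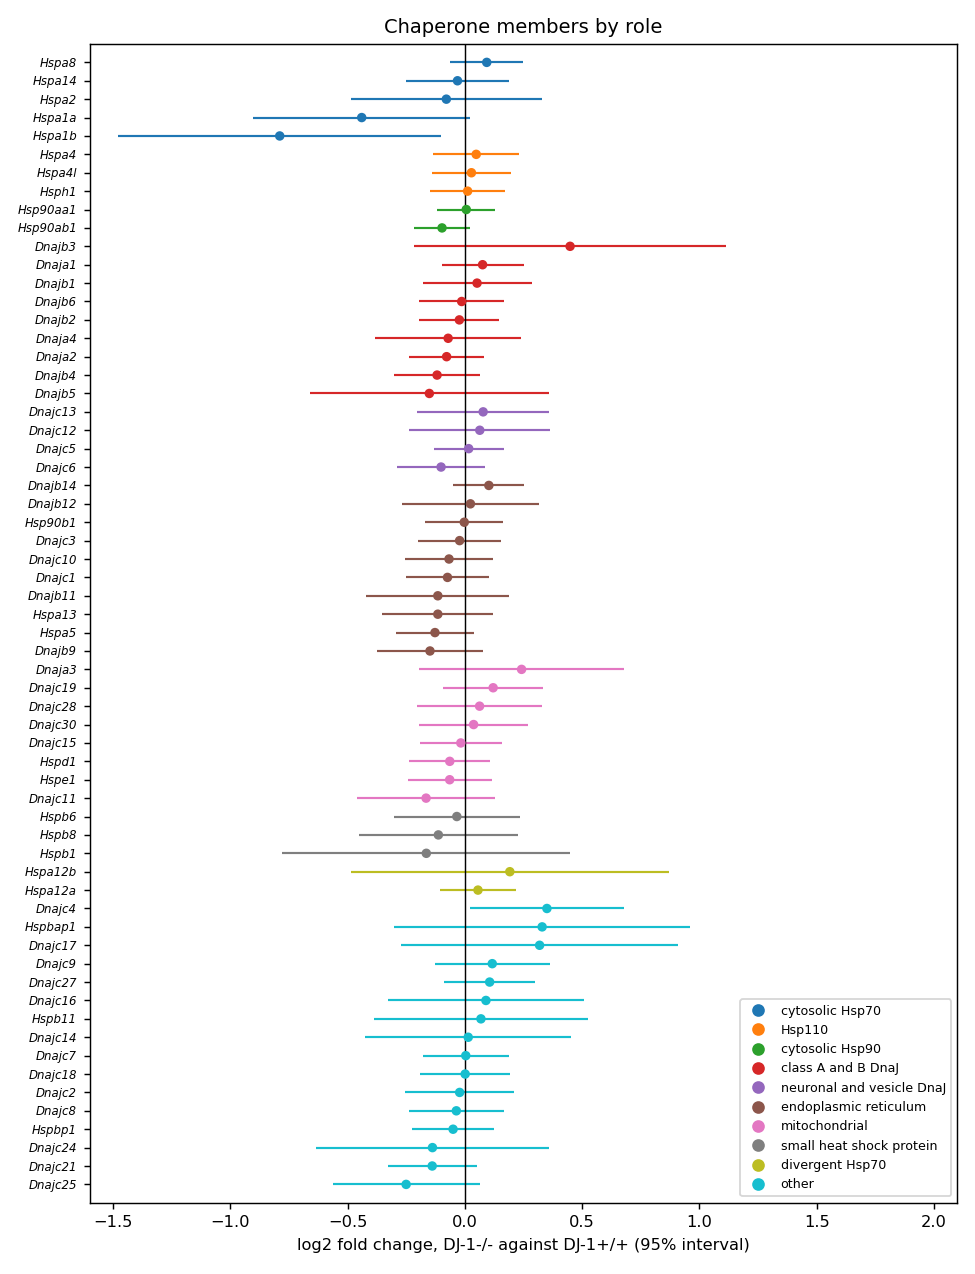
The log2 fold change of 62 members, DJ-1-/- against DJ-1+/+ (x axis), with its 95% interval as a line, grouped and coloured by the role of the protein. Hspb2 is left out because both genotypes were under 3 counts, and only the intervals of Hspa1b and Dnajc4 miss 0.

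Among the cytosolic Hsp70 genes the heat-inducible pair differed most between genotypes. Hspa1b (chr17:34956436-34959238, minus strand) had 32.1, 21.6, 12.8 and 15.8 cpm in DJ-1+/+, against 8.01, 14.6, 13.4, 7.23 and 15.6 cpm in DJ-1-/- mice. DJ-1+/+ replicate 1 was the highest and DJ-1-/- replicates 1 and 4 were the lowest, and the other 6 libraries overlapped. Its log2 fold change of −0.79 (standard error 0.33, interval −1.48 to −0.10, unadjusted p = 0.0273) was the lowest of all members and rested on 7 to 27 counts per library. This call rested on single libraries. It was lost without DJ-1+/+ replicate 1 (log2 fold change −0.50, unadjusted p = 0.159), where the cerebellar markers were high, without DJ-1+/+ replicate 2 (unadjusted p = 0.0508) and without DJ-1-/- replicate 1 (unadjusted p = 0.0626) or 4 (unadjusted p = 0.0600). With the level of Xist as a covariate it was −0.59 (unadjusted p = 0.0906), and an exact permutation test of the cpm gave p = 0.0952, two-sided. The part of the cerebellar tissue in the difference was not tested.

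Hspa1a (chr17:34969190-34972156, minus strand), the neighbouring copy, had 38.0, 25.0, 29.1 and 29.3 cpm in DJ-1+/+, against 16.0, 24.6, 29.9, 21.7 and 19.5 cpm in DJ-1-/- mice. Its highest library was again DJ-1+/+ replicate 1 and its lowest DJ-1-/- replicate 1, and the genotypes overlapped through DJ-1-/- replicate 3. In edgeR's test its log2 fold change of −0.44 (interval −0.90 to 0.02, unadjusted p = 0.0606) did not pass the test, though it did without DJ-1+/+ replicate 2 (unadjusted p = 0.0365), without DJ-1-/- replicate 3 (unadjusted p = 0.0251) and after all libraries were thinned to the same depth (unadjusted p = 0.0369). Without DJ-1+/+ replicate 1 it was −0.31 (unadjusted p = 0.198), and without DJ-1-/- replicate 1 it was −0.35 (unadjusted p = 0.135). Over all 20 alternatives the log2 fold change of Hspa1a ran from −0.56 to −0.23. The last 300 bases of the Hspa1a and Hspa1b transcripts, where the reads lie, did not match each other over 75 bases at 97% identity. The constitutive Hspa8 pointed the other way. It had 179, 198, 218 and 199 cpm in DJ-1+/+, against 206, 203, 206, 234 and 210 cpm in DJ-1-/- mice, and the log2 fold change was 0.09 (interval −0.06 to 0.25). The end of Hspa8 matched 6 other annotated genes, so its counts are uncertain to the extent that reads were shared. Hspa14, which works with ribosomes, was the steadiest gene of the family, between 82.1 and 90.3 cpm in all 9 libraries.

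**Figure D3:**
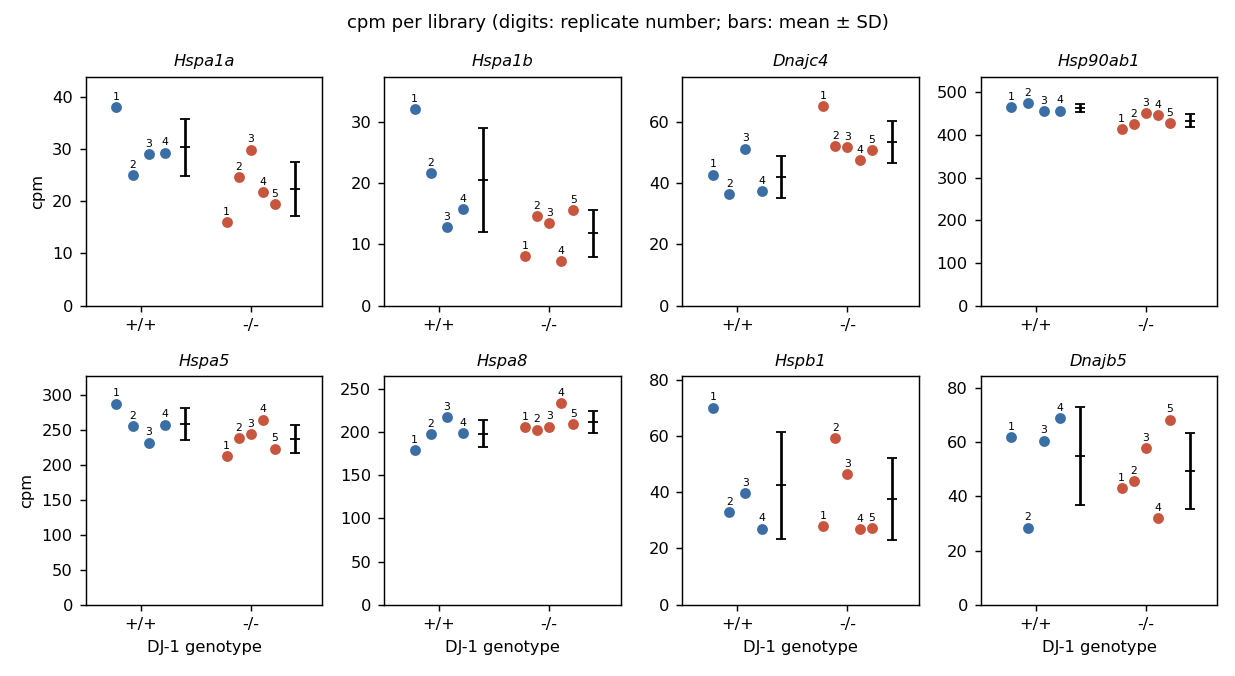
Level of 8 members (y axis, cpm from 0) in each library, with the replicate number above each point and the mean ± SD of each genotype beside it (n = 4 DJ-1+/+, n = 5 DJ-1-/-). Hsp90ab1 is the panel without overlap, and Hspa1a, Hspa1b, Hspa5 and Hspb1 each have their highest point in DJ-1+/+ replicate 1.

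Of the cytosolic Hsp90 pair, Hsp90ab1 (chr17:45567775-45573271, minus strand) had 466, 475, 455 and 457 cpm in DJ-1+/+, against 414, 425, 451, 446 and 428 cpm in DJ-1-/- mice. Every DJ-1-/- library was thus below every DJ-1+/+ library, by a small margin. The log2 fold change was −0.10 (interval −0.22 to 0.02, unadjusted p = 0.0984 in edgeR's test), and an exact permutation test of the cpm gave p = 0.0159, two-sided, the smallest that 4 mice against 5 allow. That value comes with any gene without overlap, as 226 of the 18127 genes were, and is not adjusted for that number. Among the most abundant genes, with more than 300 counts per library on average, 74.6% were lower in the deeper DJ-1-/- libraries, their median log2 fold change was −0.04, and Hsp90ab1 was 1 of 2 without overlap among 63 such genes. The next range went the other way. Of its 888 genes with 150 to 300 counts, 32.9% were lower, and their median log2 fold change was 0.03. In counts thinned to the smallest library Hsp90ab1 was at −0.13 (unadjusted p = 0.0489). Hsp90aa1 had 333, 335, 344 and 332 cpm in DJ-1+/+, against 354, 322, 334, 335 and 341 cpm in DJ-1-/- mice, and the log2 fold change was 0.01 (interval −0.12 to 0.13). The part of depth in the Hsp90ab1 difference cannot be told apart from genotype, since all DJ-1-/- libraries were deeper.

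The 3 Hsp110 genes, nucleotide exchange factors of Hsp70, were at nearly the same level in both genotypes. Hsph1 had 194, 168, 169 and 192 cpm in DJ-1+/+, against 180, 183, 170, 197 and 179 cpm in DJ-1-/- mice, and its log2 fold change of 0.01 had an interval from −0.15 to 0.17. Hspa4 and Hspa4l were at 0.05 (interval −0.13 to 0.23) and 0.03 (−0.14 to 0.20). Both were highest in DJ-1-/- replicates 4 and 5, at 206 and 196 cpm for Hspa4 and at 273 and 269 cpm for Hspa4l. The divergent Hsp70 genes Hspa12a and Hspa12b, at 0.06 and 0.19, did not pass the test either.

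DnaJ proteins of classes A and B in the cytosol and nucleus, the general partners of Hsp70, had 9 tested members, 3 of them with a positive and 6 with a negative log2 fold change (median −0.02), and none was called. Dnaja1, which is farnesylated and heat-inducible, had 191, 188, 184 and 172 cpm in DJ-1+/+, against 179, 199, 173, 227 and 188 cpm in DJ-1-/- mice. DJ-1-/- replicate 4 was the highest there, and the log2 fold change was 0.08 (interval −0.10 to 0.25). Dnajb1, the main heat-inducible DnaJ protein, had 79.6, 101, 114 and 106 cpm in DJ-1+/+, against 87.1, 104, 112, 117 and 100 cpm in DJ-1-/- mice (log2 fold change 0.05, interval −0.18 to 0.28). It was lowest in DJ-1+/+ replicate 1, the library in which Hspa1a and Hspa1b were highest. Dnajb6, which suppresses aggregation of polyglutamine proteins, was between 107 and 138 cpm (−0.01, interval −0.19 to 0.17). Dnajb3 (chr1:88204732-88205782, minus strand) had the highest log2 fold change of all members, 0.45 (interval −0.22 to 1.11, unadjusted p = 0.171), on about 10.5 cpm. It lies inside the Ugt1a genes of the other strand, whose reads can be told apart only if strand was used in counting. An annotated gene on the same strand, Gm20528, overlaps it too.

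The DnaJ proteins of the synapse and the endosome were well represented and did not differ beyond the spread between mice. Dnajc5, cysteine string protein of the synaptic vesicle, had 220, 225, 205 and 197 cpm in DJ-1+/+, against 221, 196, 219, 226 and 210 cpm in DJ-1-/- mice (log2 fold change 0.02, interval −0.13 to 0.17). Dnajc6, the neuronal auxilin that strips clathrin from vesicles, had 139, 130, 156 and 143 cpm in DJ-1+/+, against 126, 125, 144, 119 and 147 cpm in DJ-1-/- mice (−0.10, interval −0.29 to 0.08). Dnajc12, a partner of the aromatic amino acid hydroxylases including tyrosine hydroxylase, had 77.2, 69.3, 81.4 and 60.9 cpm in DJ-1+/+, against 99.1, 65.6, 79.4, 65.1 and 68.2 cpm in DJ-1-/- mice. The genotypes overlapped, with DJ-1-/- replicate 1 the highest and DJ-1+/+ replicate 4 the lowest, and the log2 fold change was 0.06 (interval −0.24 to 0.36). Dnajc13, which acts on endosomes, was between 70.0 and 73.6 cpm in DJ-1+/+, while DJ-1-/- replicate 5 reached 97.4 cpm.

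In the endoplasmic reticulum 8 of the 10 members tested had a negative and 2 a positive log2 fold change, with a median of −0.07 and none called. Of all genes, 53.9% were lower with 60 to 100 counts per library and 64.7% with 100 to 150. With 20 to 60 counts the share was 40.0%, and with 150 to 300 counts it was 32.9%. Hspa5, also known as BiP, had 287, 256, 232 and 257 cpm in DJ-1+/+, against 212, 238, 243, 265 and 223 cpm in DJ-1-/- mice. The genotypes overlapped, with the highest value in DJ-1+/+ replicate 1 and the lowest in DJ-1-/- replicate 1, and the log2 fold change was −0.13 (interval −0.29 to 0.04, unadjusted p = 0.124). Without DJ-1-/- replicate 4 it was −0.18 (unadjusted p = 0.0336), and without DJ-1+/+ replicate 1 it was −0.07 (unadjusted p = 0.394). Hsp90b1, the Hsp90 of this compartment, was at 199 ± 17.5 cpm in DJ-1+/+, against 199 ± 13.6 cpm in DJ-1-/- mice (interval −0.17 to 0.16). Dnajb9, an inducible DnaJ partner of BiP, was at −0.15 (interval −0.37 to 0.08), and Dnajb11 and Hspa13 were both at −0.12. Dnajb14, a membrane DnaJ protein, was the clearest of the 2 on the positive side, with 158, 167, 162 and 174 cpm in DJ-1+/+, against 173, 169, 173, 182 and 189 cpm in DJ-1-/- mice (0.10, interval −0.05 to 0.25). The summed level of the 10 genes ran from 1287 to 1348 cpm in DJ-1+/+, against 1217 to 1310 cpm in DJ-1-/- mice.

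Mitochondrial members were evenly split, 4 on each side, with a median log2 fold change of 0.01 over 8 genes. Hspd1 (Hsp60) and Hspe1 (Hsp10), which face each other across the promoter shown above, were measured at alike levels, 129 ± 9.15 and 126 ± 11.5 cpm in DJ-1+/+, against 124 ± 10.1 and 120 ± 9.54 cpm in DJ-1-/- mice. By library, Hspd1 had 132, 132, 116 and 138 cpm in DJ-1+/+, against 115, 114, 123, 137 and 131 cpm in DJ-1-/- mice. Hspe1 had 141, 119, 127 and 115 cpm in DJ-1+/+, against 105, 121, 130, 126 and 118 cpm in DJ-1-/- mice. Their highest libraries were not the same, DJ-1+/+ replicate 4 for Hspd1 and DJ-1+/+ replicate 1 for Hspe1. Both had a log2 fold change of −0.06, with intervals from −0.24 to 0.11. The end of Hspe1 matched 2 other annotated genes, so its counts are uncertain. Dnaja3, the DnaJ partner of mitochondrial Hsp70, varied widely, from 33.9 to 52.4 cpm in DJ-1+/+, against 32.0 to 75.6 cpm in DJ-1-/- mice (0.24, interval −0.19 to 0.68). Dnajc19, Dnajc15, Dnajc30, Dnajc28 and Dnajc11 did not pass the test.

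Of the small heat shock proteins, 4 of 7 were tested. Hspb1 (Hsp25 in mice), known from reactive glia and from vessels, had 70.1, 33.0, 39.6 and 27.1 cpm in DJ-1+/+, against 28.0, 59.2, 46.4, 26.9 and 27.3 cpm in DJ-1-/- mice. Replicate 1 stood highest in DJ-1+/+ and replicate 2 in DJ-1-/- mice, and the genotypes overlapped throughout (log2 fold change −0.16, interval −0.78 to 0.45). The sign turned to 0.19 without DJ-1+/+ replicate 1. The end of Hspb1 matched the pseudogene Hsp25-ps1. Hspb8, the partner of Bag3 in selective autophagy, was between 51.6 and 100.1 cpm, and Hspb6, of smooth muscle and glia, between 45.4 and 59.1 cpm. Hspb2, a muscle gene, had at most 3 counts in any library and is given no fold.

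The remaining members are DnaJ proteins of class C and the binding partners, with 10 positive and 6 negative log2 fold changes among 16 tested. Dnajc4 (chr19:6987911-6992572, minus strand), a membrane DnaJ protein whose substrates are little known, had 42.8, 36.4, 51.2 and 37.2 cpm in DJ-1+/+, against 65.1, 51.9, 51.6, 47.5 and 50.7 cpm in DJ-1-/- mice. All but DJ-1+/+ replicate 3 lay in the order of genotype, and DJ-1-/- replicate 1 was the highest. The log2 fold change was 0.35 (standard error 0.16, interval 0.02 to 0.68, unadjusted p = 0.0386), and the exact permutation test gave p = 0.0476, two-sided. It was no longer called with DESeq2 (0.34, unadjusted p = 0.0839), with the Xist covariate (unadjusted p = 0.0719), or in thinned counts (0.30, unadjusted p = 0.0818). Leaving out DJ-1-/- replicate 1 gave 0.27 (unadjusted p = 0.112), and leaving out DJ-1+/+ replicate 2 or 4 gave 0.28 (unadjusted p = 0.107) and 0.30 (unadjusted p = 0.101). Without DJ-1+/+ replicate 1 or DJ-1-/- replicate 2 or 3 the log2 fold change stayed at 0.36, with p between 0.0503 and 0.0548.

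Dnajc25, a membrane DnaJ protein, had 47.5, 51.1, 39.6 and 45.1 cpm in DJ-1+/+, against 35.0, 41.9, 42.3, 37.2 and 36.1 cpm in DJ-1-/- mice. The genotypes overlapped only through DJ-1+/+ replicate 3, and the log2 fold change was −0.25 (interval −0.56 to 0.06, unadjusted p = 0.109 in edgeR's test). The exact permutation test of its cpm gave p = 0.0476, two-sided, the same value as for Dnajc4. An annotated gene on the same strand, Gm20503, overlaps it. Dnajc21, which acts in ribosome assembly, had 124, 150, 152 and 120 cpm in DJ-1+/+, against 125, 113, 121, 136 and 125 cpm in DJ-1-/- mice (−0.14, interval −0.33 to 0.05, unadjusted p = 0.140). Its high libraries in DJ-1+/+ were replicates 2 and 3, and without replicate 2 or 3 it was at −0.10 (unadjusted p = 0.335) and −0.09 (unadjusted p = 0.396). Hspbp1, a nucleotide exchange factor of Hsp70, stayed between 120 and 132 cpm.

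Set side by side, the 13 genes that heat shock is known to raise did not move together. Of these, 6 had a positive and 7 a negative log2 fold change, the median was −0.06, and 1 of 13, Hspa1b, was called lower at an unadjusted p under 0.05, as were 1.26% of all genes. Their summed level ran from 2140 to 2210 cpm in DJ-1+/+, against 2038 to 2251 cpm in DJ-1-/- mice. The list includes Hsp90ab1 and Hspa8, called constitutive above, with means of 446 and 206 cpm over the 9 libraries. Hspa1a and Hspa1b were at 25.9 and 15.7 cpm, so the sum says little about this strongly inducible pair. In DJ-1+/+ replicate 1, Hspa1b, Hspb1 and Hspa1a were above their own means by 0.99, 0.80 and 0.54 on the log2 (cpm + 1) scale, while Dnajb1 was 0.36 and Hspa8 0.20 below theirs, and the Hsp90 genes were within 0.06 of theirs. DJ-1-/- replicate 4 was the highest library of 5 of the genes, Hspa4l, Hspa8, Dnaja1, Hsph1 and Dnajb1, and the lowest of Hspb1, Hspa1b and Dnajb4. The 50 members outside the list had a median log2 fold change of −0.01, with 24 positive.

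**Figure D4:**
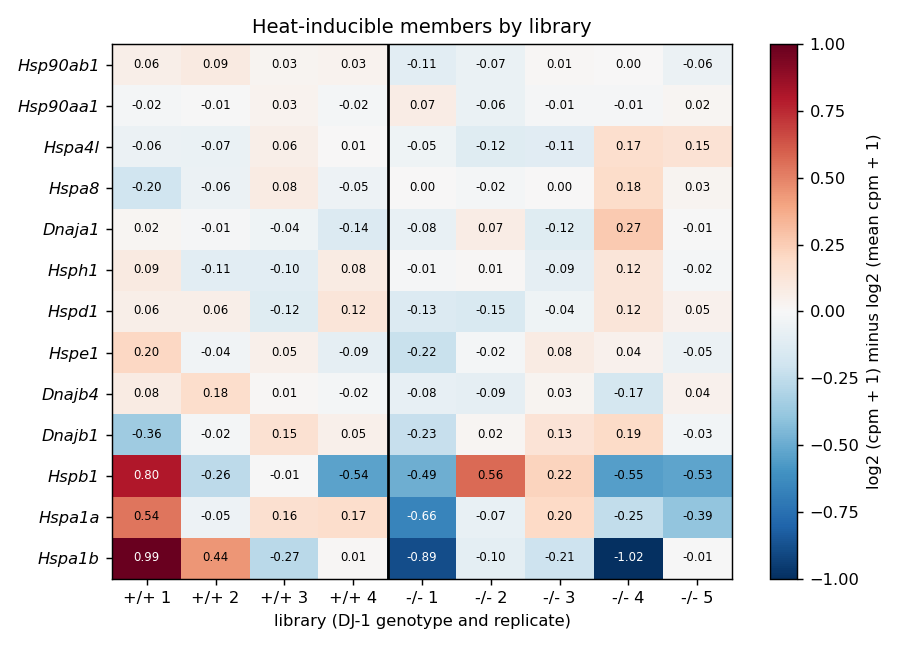
Deviation of the 13 heat-inducible members from their own mean in each library, as log2 (cpm + 1), red above and blue below, ordered by level with the most abundant at the top. The 3 least abundant genes, Hspb1, Hspa1a and Hspa1b, vary most, and no library is red or blue throughout.

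For the chaperones the spread between mice was close to that of Poisson counts. The index of dispersion is the variance within genotype over the one that Poisson counting gives, and is 1 for Poisson counts. It had a median of 0.93 over the 63 members and 1.13 over all genes. It was under 1 for 32 members (50.8%), against 43.0% of all genes. Genes with 100 to 150 counts per library had a median of 0.89 over the whole table. Counts of this range were thus more even than Poisson counts for chaperones and other genes alike. For this reason an index near 1 does not show that the mice differed by counting error only. Hspa14 was the most even (0.0931), followed by Hspbp1 (0.106), Dnajb12 (0.165) and Dnajb2 (0.192). At the other end Hspb1 was at 6.47, Dnajb5 at 4.67, Dnajc16 at 4.48 and Dnaja3 at 3.07. Dnajb5 had 61.8, 28.4, 60.5 and 68.8 cpm in DJ-1+/+, against 43.0, 45.5, 57.8, 32.0 and 68.2 cpm in DJ-1-/- mice. Its lowest library in each genotype, DJ-1+/+ replicate 2 and DJ-1-/- replicate 4, was the one in which the dopaminergic markers were highest (1190 and 1259 cpm). Dnajc16 was lowest in DJ-1-/- replicate 4 too, at 46.5 cpm, and highest in DJ-1+/+ replicate 4, at 93.7 cpm. For neither gene was the part of tissue composition tested, and the log2 fold change of Dnajb5 crossed 0 with Xist as a covariate, that of Dnajc16 when single libraries were left out.

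**Figure D5:**
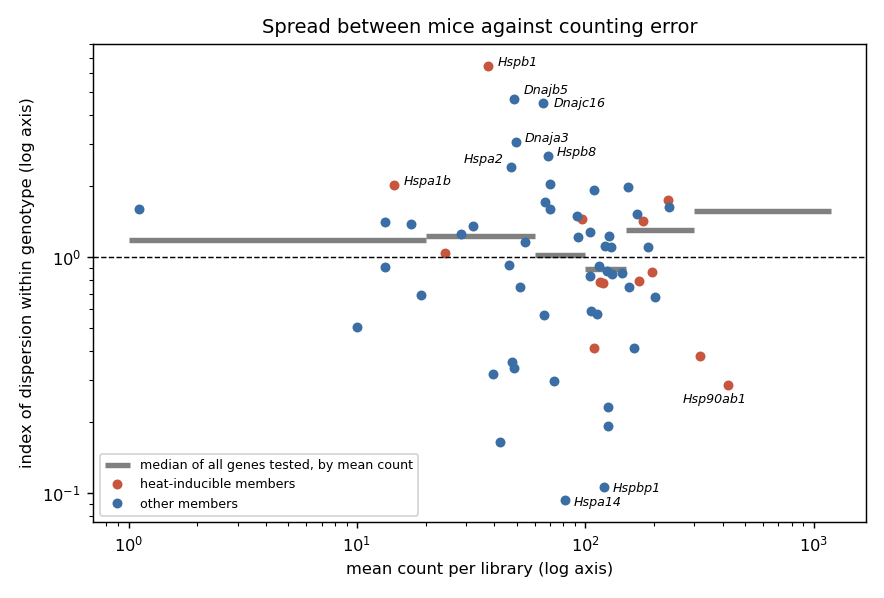
Index of dispersion within genotype (y axis, logarithmic, 1 for Poisson counts) against the mean count per library (x axis, logarithmic) for the 63 members. Grey bars give the median of all genes in ranges of the mean count. Hspb1, Dnajb5 and Dnajc16 lie far above the bars, and Hspa14, Hspbp1 and Hsp90ab1 far below.

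The other genes of the chaperone system were read from fixed lists, and none passed an unadjusted p of 0.05 in edgeR's test. Of 5 tested family members that carry other symbols, 2 were positive and 3 negative, with a median log2 fold change of −0.10. Sec63, a membrane DnaJ protein of the endoplasmic reticulum's protein import, was the lowest at −0.15 (interval −0.33 to 0.02, unadjusted p = 0.0876). Hyou1, an Hsp110 protein of the endoplasmic reticulum, was the highest at 0.20. The 5 heat shock factors and their regulators were all positive, where 51.9% of all genes tested were positive. They ran from 0.01 for Hsf1, at 40.4 ± 8.43 and 40.6 ± 4.80 cpm, to 0.37 (standard error 0.30) for Hsf4. Their median of 0.12 was the value of Hsf2bp (standard error 0.60), which had only 0 to 5 counts per library, near the floor. Among 24 co-chaperones of Hsp70 and Hsp90, 14 were positive and 10 negative, from −0.09 for Ttc4, an Hsp90 partner, to 0.26 (unadjusted p = 0.0683) for Sil1, the exchange factor of BiP. The 14 subunits of the TRiC chaperonin and of prefoldin were split 7 and 7 around a median of 0.00, from −0.08 for Pfdn4 to 0.18 (unadjusted p = 0.0586) for the prefoldin subunit Vbp1.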

How the data were processed

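The authors deposited, for each of 9 mice, the count of unique molecular identifiers per gene as whole numbers, without normalization and listing only genes with a count. Libraries were made from 3′ ends (QuantSeq). The submitters' processing notes name fastp 0.20.0, STAR 2.7.3a, featureCounts 2.0.0, UMI-tools 1.0.0 and the build GRCm38, and strand use is not given in the sources used here. A gene not listed for a mouse was counted as 0, and symbols and positions are those of GENCODE M21 (GRCm38).

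All genes reaching 10 counts in total were tested together with edgeR 4.0.16 (TMM, glmQLFit, glmQLFTest, genotype as the only term) in R 4.3.3, with Benjamini-Hochberg adjustment over all 18127 genes. The test limits the p of 18 members to that of a Poisson test, and standard errors and 95% intervals follow the p used. Single cpm values were compared by exact permutation over 126 splits (scipy 1.17.1). Transcript ends were compared with blastn 2.17.0. DESeq2 1.42.0, other normalizations, filters, a robust fit, an Xist covariate, a replicate block, thinned counts and leaving out each library were alternatives. The fits were tested on simulated data, with changes larger than that of any member here. That run does not show how well changes as small as those of the members are found.

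The members and all gene lists were chosen with earlier results of these data known. Named were Park7, 18 canonical members, members with an unadjusted p under 0.05 or no overlap, the 8 smallest p, the extremes of fold change, the 5 most abundant, the 5 most variable beyond counting error and the extremes of each other list, and members named beyond these were picked after their values were seen. The libraries come from separate animals, and no pair agreed within sampling noise (chi-square per degree of freedom 1.07 to 2.27 over 16 pairs). From the list of family members under other symbols, 1 gene is not reported here.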

Additional observations from a re-analysis of the deposited data

Results flagged for a closer look

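Among the 26 named members, 52 groups of libraries were examined for a library that stood far from the others of its genotype, of which 2.6 are flagged by chance at 1 in 20, and 2 were flagged. Dnajc4 was at 65.1 cpm in DJ-1-/- replicate 1, with the other DJ-1-/- libraries between 47.5 and 51.9 cpm. Hspa8 was at 234 cpm in DJ-1-/- replicate 4, with the others between 203 and 210 cpm.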

How the results depend on the processing

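The count of members with an adjusted p under 0.05 was 0 under all 20 alternatives. The median log2 fold change of the members ran from −0.035 to −0.0043 when each library was left out, and from −0.025 to 0.0056 under the other alternatives, which moved it from −0.014 by less than its SD between libraries (0.025). The count with an unadjusted p under 0.05, 2 in the report, ran from 0 to 3 when each library was left out. It was 0 without DJ-1+/+ replicate 1 (417 of 17881 genes called) and without DJ-1-/- replicate 1 (449 of 17846 genes). Without DJ-1-/- replicate 4 it was 3, Dnaja3, Dnajc4 and Hspa5 (548 of 17848 genes). It was 1 with DESeq2 (235 of 18127 genes) and 0 with the Xist covariate (446 of 18127 genes). Thinned counts gave 3, Hspa1b, Hspa1a and Hsp90ab1 (510 of 17838 genes). With the replicate number as a block it was 1, Hspa1b (571 of 18127 genes), and Dnajc4 had an unadjusted p of 0.0536. No source pairs mice by number. The deviations of same-numbered mice from the genotype means correlated at 0.29, 0.06, −0.12 and −0.20, and 1 of 4 correlated best with its own number. Whether same-numbered mice shared more than a number cannot be told from 4 such values. Added after seeing the data, a fit without DJ-1+/+ replicates 1 and 4 called 1 member, where 467 of 17571 genes were called. That member was Dnajc21 (−0.29, unadjusted p = 0.0131), in which the 2 libraries left out were the lowest of DJ-1+/+. In the same fit Hspa1b was at −0.54 (unadjusted p = 0.193).

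Signs turned for 3 named members, none of them called. Hspb1, at −0.16, ran from −0.39 to 0.19 (without DJ-1+/+ replicate 1) when each library was left out, and was at 0.060 without DJ-1+/+ replicates 1 and 4 and at 0.15 in the 6 libraries with Xist expression. Dnajb5, at −0.15, was at 0.064 with the Xist covariate and at 0.16 and 0.0057 in the same sets of libraries. Dnajc16, at 0.09, ran from −0.026 to 0.31 when each library was left out, and was at −0.00087, −0.026 and −0.019 without DJ-1+/+ replicate 2, DJ-1+/+ replicate 3 and DJ-1-/- replicate 3. The cause was not tested. Intervals reached a 1.5-fold change for 12 members, none above 51.8 cpm, among them Hspb1, Dnajb5 and Dnaja3, whose index of dispersion was 6.47, 4.67 and 3.07, and genotype and depth cannot be told apart because all DJ-1-/- libraries were deeper.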
